A study of Mus musculus with 8 samples.

Results

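Nucleoporins build the nuclear pore complex, the channel through which proteins and RNA pass between nucleus and cytoplasm, and importins and exportins are the carriers that take cargo through it. The genes described here are 48 of the 22180 genes measured with 1 gene symbol. Membership follows from the symbol: every Nup, Nupl, Kpna, Kpnb, Ipo, Xpo and Tnpo gene, plus Tpr, Ndc1, Aaas, Pom121, Ranbp2, Seh1l and Rae1, where a row carried that symbol alone. Of several rows for a gene the one of highest mean was used. They comprise 25 nucleoporins and 23 transport receptors. Tpr and Nup35 are not analysed here. A further 3 genes (Nup62, Nup85 and Nupl1), whose rows carry the symbol of another gene as well, are not counted, but those rows are described below.

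The values are log2 expression of total RNA from whole mouse pancreas, strain C57 BL6, on 8 arrays, with 4 control (LmnaWT, here WT) and 4 knockout (LmnaKO, here KO) samples. All 8 samples had received tamoxifen intraperitoneally at 3 mg per 40 g of body weight, 6 days earlier. Each genotype held 3 males (replicates 1 to 3) and 1 female (replicate 4). By its title, the series concerns acinar cells that lost lamin A/C, the filament protein of the inner nuclear envelope encoded by Lmna. What drives recombination, the age of the mice and any pooling were not stated in the labels read here. Nothing says that the samples came from separate animals, so the p-values reflect only how far these samples spread, which may be technical.

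Throughout, array values are listed in the order of replicates 1 to 4. Lmna, the targeted gene, read 2.54, 3.13, 2.67 and 2.88 in WT and 2.33, 2.58, 2.73 and 2.61 in KO (-0.24 ± 0.15, adjusted p = 0.264). Its probe positions were not at hand, so this dim row does not check the genotype labels. Acinar markers were bright in every array, with a mean over 10 genes of 9.90 to 10.05 in WT and 9.28 to 9.46 in KO. Of the 10, 4 fell: Amy2b (-1.89), Rbpjl (-1.60), Bhlha15 (-1.42) and Prss2 (-0.89). The other 6 did not pass (-0.22 for Cpb1 to 0.12 for Prss1). Among all genes 6.99% were lower, and 14.2% of those with a mean level of 8 or more. In bulk tissue, fewer cells of a type and less RNA per cell cannot be told apart. The KO arrays spanned a wider range of values (interquartile range over all genes 2.883 to 3.033 log2 units) than the WT arrays (2.105 to 2.477). WT 2 had the narrowest range.

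By way of background, the pore is a ring of repeated subunits. A scaffold of outer (Y complex) and inner rings surrounds a central channel lined with phenylalanine-glycine repeats, membrane nucleoporins anchor it in the envelope, and filaments reach into the cytoplasm on one face and form a basket on the other. The nuclear lamina lies beside the basket. Importin alpha adaptors bind a nuclear localization signal and are carried by importin beta (Kpnb1), other members of the importin beta family bind cargo directly, and the small GTPase Ran, loaded with GTP in the nucleus, releases import cargo and holds export cargo on exportins. An acinar cell is specialised for protein secretion, and its pores carry the mRNA of the digestive enzymes outward.

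In KO pancreas 30 of the 48 genes rose and 1 fell, at a limma adjusted p under 0.05 over all genes. Among all genes 14.6% were called higher and 6.99% lower. The median change of the 48 was 0.72 log2 units, against -0.06 over all genes. Changes ran from -0.53 for Nup188 to 1.42 for Aaas, and 42 of the 48 were above 0. All 4 KO arrays lay above all 4 WT arrays in 30 genes (15.3% of all genes) and below them in 2 (12.1% of all genes). Of the 30 genes called higher, 28 were separated in this way. By class, 16 of 25 nucleoporins (median 0.70) and 14 of 23 transport receptors (median 0.74) were higher.

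**Figure D1:**
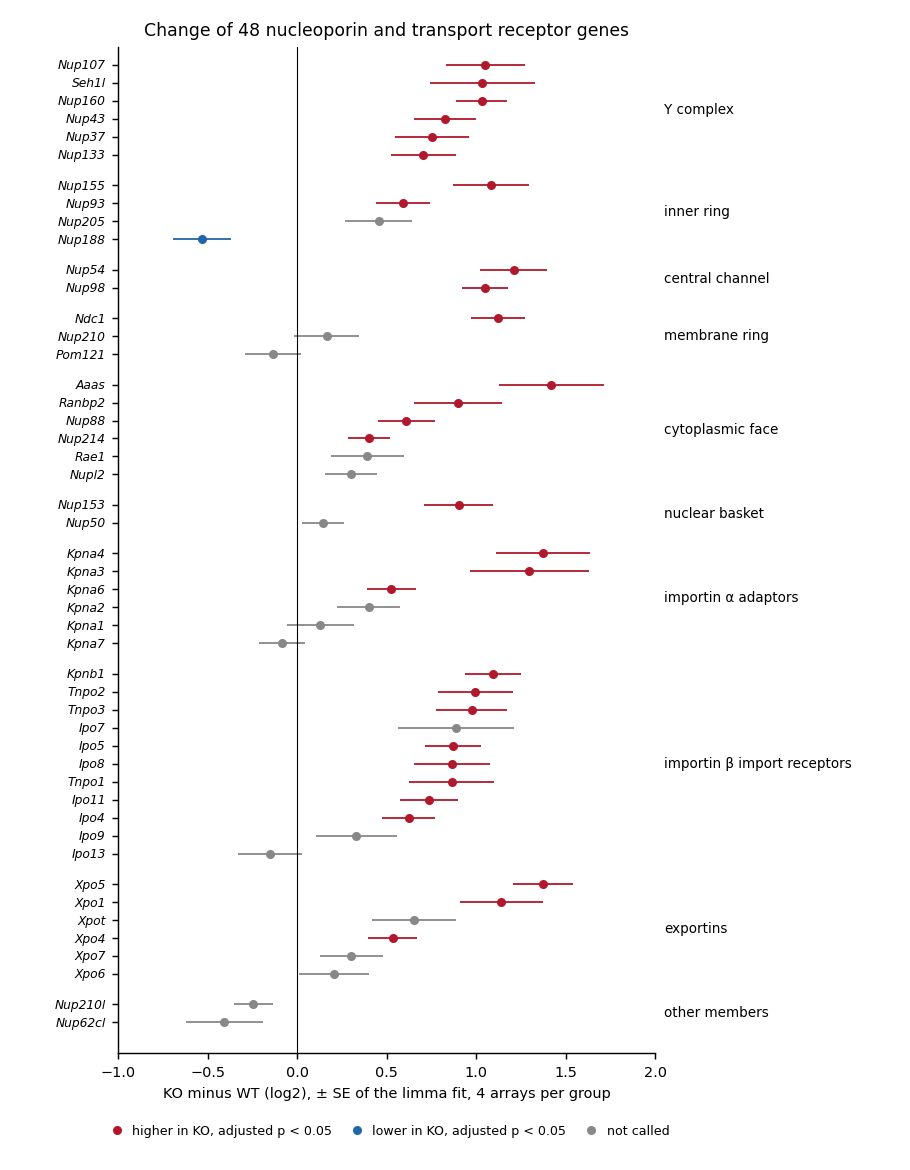
Change of each of the 48 genes (x axis, KO minus WT in log2 units, points, with the standard error of the limma fit as bars, 4 arrays per group), arranged by role in the pore or in transport. Red points passed the adjusted threshold as higher, the blue point (Nup188) as lower, and grey points did not pass; all 6 measured Y complex genes are red, while Pom121, Nup210 and Nup50 lie near 0.

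The share of genes called higher differed with their level on the array, so the members were set beside all genes of the same mean level. At a level of 3 to 4, 6 of 9 members were higher, against 22.9% of all genes there. At 4 to 5 it was 10 of 14 against 36.6%, at 5 to 6 it was 6 of 11 against 39.7%, and at 6 to 8 it was 8 of 11 against 33.1%. Median changes were 0.70, 0.78, 0.61 and 0.89 for the members and 0.26, 0.45, 0.50 and 0.39 for all genes of these levels. The other 3 members (Nup188, Nup210l and Kpna7) had a mean level under 2, where 0 were higher and 1 was lower, against 6.93% of all genes lower. The counts by role below rest on few genes each and are to be read beside these shares.

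**Figure D2:**
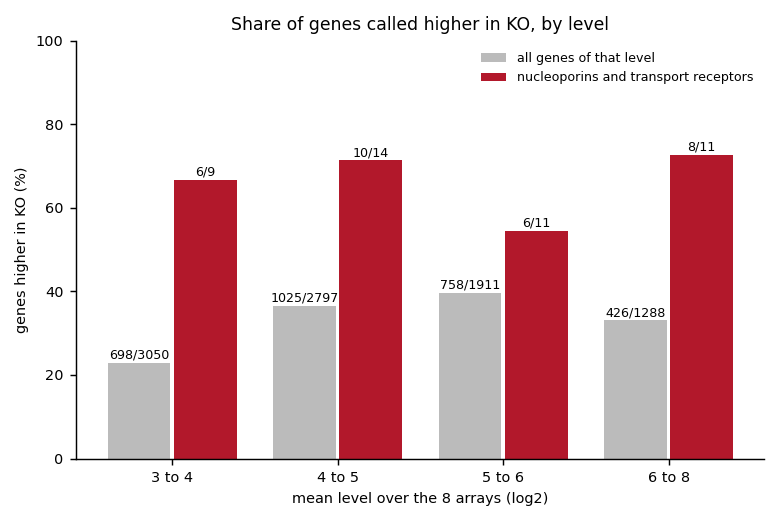
Share of genes called higher in KO (y axis, percent) in 4 ranges of mean log2 level over the 8 arrays (x axis), for all genes of that level (grey bars) and for the members in it (red bars), with the counts printed above each bar. In each range the members' bar is the taller, from 54.5% against 39.7% at a level of 5 to 6 to 72.7% against 33.1% at 6 to 8.

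The size of the change also differed with the normalization. After a quantile normalization of the deposited values between arrays, 13 members were higher (27.1%, against 5.54% of all genes) and their median change was 0.48. It is called the second quantile normalization below. That is a label only, since no source states that the deposited values had been quantile normalized before. After cyclic loess 15 members were higher (31.2%, against 6.86%), with a median of 0.47. Among members of level 4 to 8 the median difference was 0.87 as deposited, 0.49 after the second quantile step and 0.47 after cyclic loess, where all genes of that level had medians of 0.46, 0.07 and 0.08. The call held in each alternative for 6 genes (Nup160, Nup54, Nup98, Ndc1, Kpnb1 and Xpo5), and in each but males only for 7 more (Nup43, Nup107, Nup155, Aaas, Kpna4, Ipo5 and Tnpo3). All 30 genes called higher stayed above 0 throughout, although Nup214 and Ipo4 came close to it in some alternatives. With the 3 males per genotype 6 members were higher (12.5%, against 3.47% of all genes). Without KO 4 it was 19 (39.6%, against 8.03% of all genes), 9 of them transport receptors. Nucleoporins called higher numbered 10 of 25 without WT 4, without KO 3 and without KO 4, where 11%, 9.75% and 8.03% of all genes were higher. Of all genes called, 67.6% were higher as deposited, 51.8% after the second quantile normalization, 56.4% after cyclic loess and 87.7% after median centring, which moved the median change of all genes from -0.06 to 0.08.

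Promoter sequences from RefSeq (build GRCm38.p6) matched 40 of the 48 genes and 16990 of all genes. Short motifs were searched on both strands in the 250 bases before each start. CCAAT, the box bound by NF-Y, stood in 19 of the 40 (47.5%), against 39.9% of the 7230 matched genes with a mean level of 3 to 8 and 38.7% of all. CGCATGCG, the core of the NRF1 site, stood in 3 (Nup107, Nup50 and Xpo5; 7.5%, against 3.87% and 2.37%), and the cyclic AMP response element TGACGTCA in 2 (Nup133 and Nup214; 5%, against 3.13% and 2.3%). The GC box GGGCGG stood in 25 (62.5%, against 65.8% and 46.2%), and TATAAA in 5 (12.5%, against 7.9% and 13.2%). TGATGNAAT, the element bound by CHOP and ATF4, and TTTGGCGC, a form of the E2F site, stood in none of the 40 (0.498% and 0.927% of the genes of level 3 to 8). TTTCCCGC, another E2F form, stood in 1 (Nup210). TGACG, contained in TGACGTCA, stood in 15 (37.5%, against 31.5% and 23.2%). These are matches of letters and not shown binding sites. The 3 windows below show, in capitals, the repeated CCAAT of Kpnb1 (chr11:97187893-97188142, minus strand) and TGACGTCA of Nup133 (chr8:123949266-123949515, minus strand), both genes that rose, and CGCATGCG of Nup50 (chr15:84923178-84923427, plus strand), which did not pass. Each runs 5′ to 3′ on the strand of its gene and ends at the base before its start.
Kpnb1: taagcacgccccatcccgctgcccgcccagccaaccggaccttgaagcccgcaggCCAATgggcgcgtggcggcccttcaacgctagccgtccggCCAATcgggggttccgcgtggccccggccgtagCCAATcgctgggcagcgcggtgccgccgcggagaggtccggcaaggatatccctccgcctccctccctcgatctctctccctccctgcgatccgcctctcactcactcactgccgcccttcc
Nup133: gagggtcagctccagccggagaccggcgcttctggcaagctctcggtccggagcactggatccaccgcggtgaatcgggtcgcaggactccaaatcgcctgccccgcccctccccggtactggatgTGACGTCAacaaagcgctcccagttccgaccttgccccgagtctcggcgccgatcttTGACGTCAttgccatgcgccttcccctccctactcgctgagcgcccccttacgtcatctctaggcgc
Nup50: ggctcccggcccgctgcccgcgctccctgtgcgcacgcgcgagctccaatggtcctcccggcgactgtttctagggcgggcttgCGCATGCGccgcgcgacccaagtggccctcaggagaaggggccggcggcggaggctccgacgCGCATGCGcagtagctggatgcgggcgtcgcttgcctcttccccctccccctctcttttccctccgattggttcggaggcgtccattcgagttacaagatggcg

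In the Kpnb1 window the 3 CCAAT matches began 195, 155 and 122 bases before the start. The pair in Nup133 began at 124 and 67 bases, and the pair in Nup50 at 166 and 104. Members had a median of 21 CpG dinucleotides per window, against 16 for genes of level 3 to 8 and 10 for all genes, and a median GC content of 61.8%, 60.2% and 55.6% respectively.

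In the Y complex, the outer scaffold, 6 of 6 measured genes rose, with a median of 0.93. In WT the rows of Nup133 (mean 2.656), Nup107 (2.745) and Nup43 (2.919) were about as dim as that of Lmna (2.805). A row annotated to both Nup85, another Y complex gene, and Hmgb1 did not pass (0.23, limma adjusted p = 0.33 over all rows). Nup160, a core subunit of the Y, read 4.12, 3.54, 3.96 and 3.84 in WT and 4.82, 4.96, 4.77 and 5.03 in KO. Every KO array was higher than every WT array, and the mean went from 3.87 ± 0.24 to 4.90 ± 0.12 (SD, n = 4 per group), a change of 1.03 ± 0.14 log2 units (± SE, 2.04-fold, adjusted p = 0.00266). Nup107, in the stem, read 3.05, 2.80, 2.52 and 2.61 in WT and 3.23, 4.35, 3.79 and 3.82 in KO; KO 1 stood nearest to the WT arrays (1.05 ± 0.22, adjusted p = 0.012). Nup43, a small propeller protein of one arm, read 3.29, 2.73, 2.77 and 2.88 in WT and 3.82, 3.35, 3.87 and 3.93 in KO, where KO 2 lay just above WT 1 (0.82 ± 0.17, adjusted p = 0.0118). The other 3 rose by 0.70 (Nup133, which tethers the ring to the membrane), 0.75 (Nup37) and 1.03 (Seh1l, also a subunit of the GATOR2 complex of amino acid sensing), with adjusted p of 0.025 to 0.0335. Nup37 overlapped between the groups, since KO 2 (3.74) lay below WT 1 (3.85). The call held in 12 of 18 alternatives for Nup133, in 9 of 18 for Nup37 and in 11 of 19 for Seh1l, and was lost for each after the second quantile normalization, where Seh1l differed by 0.64. A second, dim row of Seh1l differed by 0.11 (limma adjusted p = 0.429 over rows with 1 symbol). Another dim row, annotated to 4930549G23Rik and Seh1l, differed by -0.19 (limma adjusted p = 0.256 over all rows).

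Of the inner ring, which lies between the outer rings, 2 of 4 measured genes rose and 1 fell. Nup155, a large scaffold protein, read 3.88, 3.57, 3.14 and 3.90 in WT and 4.31, 5.09, 4.66 and 4.76 in KO, without overlap (1.08 ± 0.21, 2.12-fold, adjusted p = 0.00887). Nup93, the linker that holds the inner ring and the channel together, read 3.17, 2.77, 3.25 and 2.84 in WT and 3.49, 3.82, 3.40 and 3.69 in KO (0.59 ± 0.15, adjusted p = 0.0245). KO 3 came close to WT 3, and the call held in 11 of 18 alternatives. Nup205 read 3.88, 3.87, 3.90 and 3.13 in WT and 4.003, 4.14, 4.09 and 4.36 in KO; the groups did not overlap and WT 4 stood far below the other WT arrays, and the difference of 0.45 ± 0.19 did not pass (adjusted p = 0.103).

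Nup188, a paralogue of Nup205, was the 1 member that fell. Its row was among the dimmest, at 1.60, 1.79, 1.76 and 2.24 in WT and 1.33, 1.36, 1.51 and 1.06 in KO (-0.53 ± 0.16, adjusted p = 0.0427). The groups did not overlap, but the call held in 5 of 18 alternatives, and was lost with sex as a term (adjusted p = 0.0592) and with the replicate number as a block (adjusted p = 0.0699). A brighter row, annotated to both Nup188 and Phyhd1, ran the other way: it read 4.25, 3.60, 4.11 and 4.09 in WT and 4.55, 5.05, 4.73 and 4.82 in KO (0.77 ± 0.17, limma adjusted p = 0.0249 over all 41345 rows). That row names no single gene, so the direction for Nup188 is not settled by these data.

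Both measured genes of the central channel, which carry the phenylalanine-glycine repeats that carriers bind, rose. Rows that channel genes share with other symbols did not pass. The row of Nup62, Il4i1 and Il4i1b differed by -0.17 (limma adjusted p = 0.339 over all rows). That of Nupl1 and Mir719 differed by 0.51 (limma adjusted p = 0.0523 over all rows). Nup98, which also enters the nucleoplasm and whose transcript encodes the Y complex protein Nup96 too, read 5.52, 5.22, 5.50 and 5.73 in WT and 6.48, 6.53, 6.60 and 6.55 in KO. The 4 KO values lay close together (SD 0.05) and above every WT value (1.05 ± 0.13, 2.07-fold, adjusted p = 0.00204). The difference was 0.64 and still called after the second quantile normalization. Nup54, a coiled-coil channel protein, read 3.87, 3.32, 3.12 and 3.96 in WT and 4.84, 4.79, 4.70 and 4.78 in KO (1.21 ± 0.19, 2.31-fold, adjusted p = 0.00398). Again the KO arrays were close together (SD 0.06) and the WT arrays spread (SD 0.41).

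Of the membrane nucleoporins 1 of 3 rose. All 3 had a mean level of 4 to 5, where 36.6% of all genes were higher. Ndc1, the transmembrane anchor needed for pore assembly, read 3.81, 3.33, 3.73 and 3.32 in WT and 4.51, 4.81, 4.55 and 4.80 in KO (1.12 ± 0.15, 2.18-fold, adjusted p = 0.00246). Its partners in the membrane ring did not pass. Nup210 (gp210) read 5.10, 4.33, 5.04 and 5.03 in WT and 5.09, 5.19, 4.97 and 4.89 in KO (0.16 ± 0.18, adjusted p = 0.511), and without WT 2, the array that stood apart, the difference was -0.02. Pom121 read 4.47, 5.16, 4.93 and 4.95 in WT and 4.69, 4.85, 4.77 and 4.65 in KO (-0.14 ± 0.15, adjusted p = 0.523), with the KO arrays inside the WT range.

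On the cytoplasmic face 4 of 6 genes rose. Aaas (aladin), a docking protein bound by Ndc1, had the largest change of all 48 in the fit reported here: it read 4.70, 3.40, 4.30 and 3.73 in WT and 5.79, 5.10, 5.83 and 5.09 in KO (1.42 ± 0.29, 2.68-fold, adjusted p = 0.0112). The groups were apart, although replicates of each spread widely (SD 0.58 in WT and 0.42 in KO). Nup88, which holds Nup214 at the pore, read 5.04, 4.48, 5.07 and 4.67 in WT and 5.62, 5.44, 5.39 and 5.26 in KO (0.61 ± 0.16, adjusted p = 0.0257). Ranbp2 (Nup358), the filament protein with SUMO ligase activity, read 6.95, 5.80, 6.79 and 7.08 in WT and 7.59, 7.57, 7.49 and 7.56 in KO (0.90 ± 0.25, adjusted p = 0.0306); WT 2 stood far below the other WT arrays. Nup214, a docking site for exportin cargo, rose by 0.40 ± 0.12 (adjusted p = 0.0379), a call that held in 7 of 19 alternatives and was lost with the replicate block (adjusted p = 0.0523). After the second quantile normalization the difference of Nup214 was 0.0035 (adjusted p = 0.991) and after cyclic loess 0.04. Calls of Nup88 and Ranbp2 were also lost after both further normalizations, with differences of 0.20 and 0.58 after the second quantile one.

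The other 2 genes of this face, Nupl2 and Rae1, did not pass. Nupl2 read 3.15, 2.97, 3.22 and 2.95 in WT and 3.22, 3.17, 3.71 and 3.40 in KO (0.30 ± 0.15, adjusted p = 0.15), with KO 1 and KO 2 just below WT 3. Rae1, which binds mRNA export factors and Nup98, read 6.91, 5.86, 6.59 and 6.59 in WT and 7.03, 6.78, 6.85 and 6.86 in KO (0.39 ± 0.20, adjusted p = 0.177). There 3 of 4 KO arrays lay below WT 1.

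At the nuclear basket, which faces the lamina, 1 of 2 measured genes rose. Both had a mean level of 5 to 6, where 39.7% of all genes were higher. Nup153, which binds lamins and chromatin, read 5.53, 4.68, 4.99 and 5.39 in WT and 5.83, 6.21, 5.97 and 6.18 in KO (0.90 ± 0.19, 1.87-fold, adjusted p = 0.0121), with all KO arrays above WT; the change was 0.49 and the call lost after the second quantile normalization. Nup50, a mobile basket protein that helps unload importin alpha, read 5.01, 4.94, 5.15 and 4.92 in WT and 5.22, 5.27, 5.13 and 4.98 in KO. Its groups overlapped, and the difference of 0.14 ± 0.12 (adjusted p = 0.369) turned to -0.28 after the second quantile step and to -0.25 after cyclic loess.

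The last 2 nucleoporins by symbol, Nup210l and Nup62cl, are paralogues of Nup210 and Nup62. Nup210l, a testis gene, was dim: it read 1.68, 1.55, 1.50 and 1.65 in WT and 1.29, 1.48, 1.37 and 1.26 in KO (-0.24 ± 0.11, adjusted p = 0.125), a separation of groups that did not pass. Nup62cl read 4.72, 3.57, 4.21 and 4.19 in WT and 3.99, 3.60, 3.72 and 3.74 in KO (-0.41 ± 0.22, adjusted p = 0.187), and passed as lower without WT 2 (-0.61) and after cyclic loess (-0.68).

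**Figure D3:**
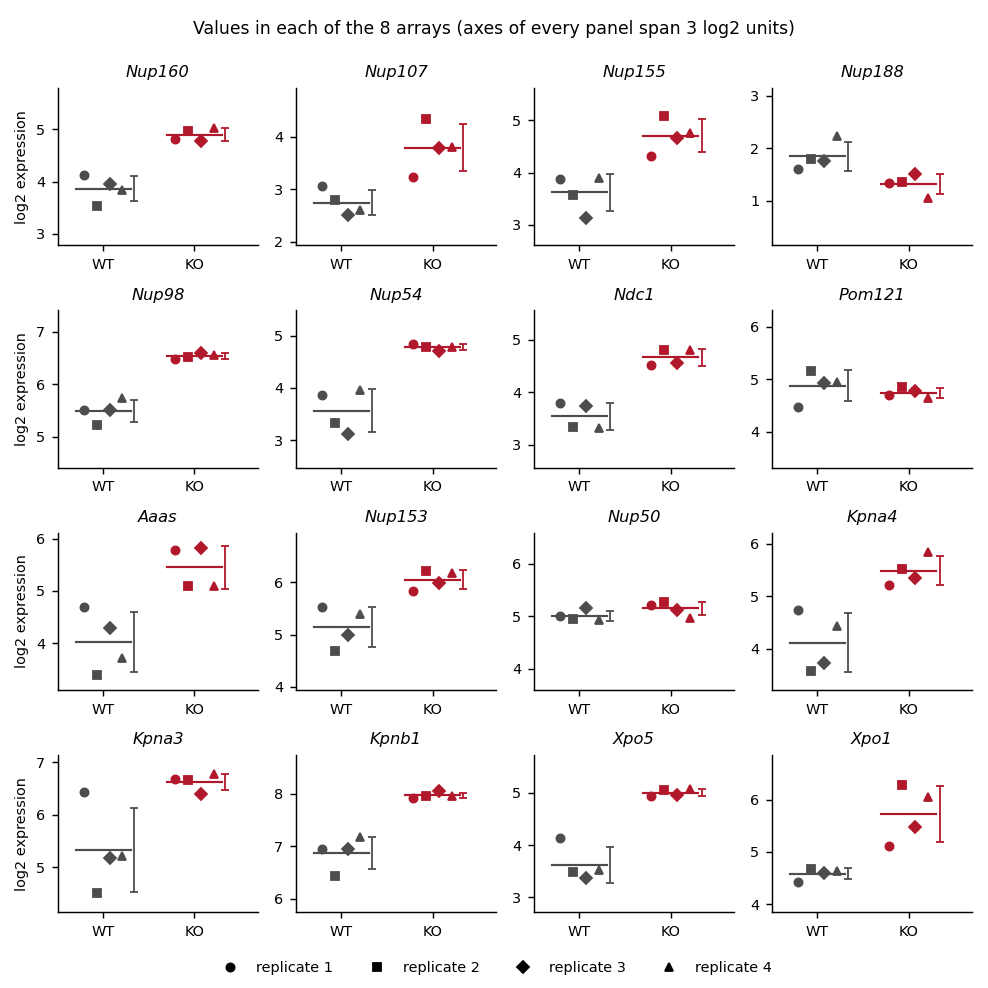
Log2 expression (y axis, each panel spanning 3 log2 units) of 16 members in every array, with a symbol for each replicate number, a line at the group mean and a bar of 1 SD (n = 4 per group). In Nup98, Nup54, Kpnb1 and Xpo5 the KO points lie close together above all WT points, whereas in Pom121 and Nup50 the groups overlap and in Kpna3 WT 1 lies among the KO arrays.

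Among the importin alpha adaptors, 3 of 6 rose. Apart from Kpna7 their mean level was 4 to 8, where 36.8% of all genes were higher. Kpna4 read 4.74, 3.57, 3.72 and 4.43 in WT and 5.21, 5.52, 5.35 and 5.85 in KO (1.37 ± 0.26, 2.59-fold, adjusted p = 0.00828), with no overlap. Its closest paralogue Kpna3 read 6.42, 4.51, 5.17 and 5.22 in WT and 6.67, 6.66, 6.40 and 6.77 in KO (1.30 ± 0.33, adjusted p = 0.0241); WT 1 lay just above KO 3, and the call held in 12 of 19 alternatives. Kpna6 read 4.51, 4.38, 4.65 and 4.23 in WT and 5.12, 4.95, 5.07 and 4.74 in KO (0.52 ± 0.14, adjusted p = 0.0252). Its second, dimmer row showed no such change (-0.08 ± 0.11), and the mean of the rows did not pass (0.22). After the second quantile normalization the difference was 0.12 and not called. Close paralogues could share probes, whose positions were not at hand, so values of single adaptors are uncertain.

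The other adaptors did not pass. Kpna2, the adaptor known for high expression in dividing cells, read 4.67, 3.87, 4.22 and 4.44 in WT and 4.53, 4.60, 4.79 and 4.89 in KO (0.40 ± 0.18, adjusted p = 0.122), with KO 1 and KO 2 below WT 1. It passed in 1 of 19 alternatives, without WT 1 (0.52, adjusted p = 0.0446). Kpna1 read 5.43, 4.58, 5.07 and 5.27 in WT and 5.36, 5.21, 4.99 and 5.32 in KO, a full overlap (0.13 ± 0.19, adjusted p = 0.619) whose sign turned after the second quantile normalization (-0.28), after cyclic loess (-0.27) and without WT 2 (-0.04). Kpna7, an adaptor of oocytes and early embryos, was dim in every array (1.48 to 1.86) and its difference was -0.09 (adjusted p = 0.627), above 0 after both further normalizations and after median centring.

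Of the import receptors of the importin beta family 8 of 11 rose, with a median of 0.87. Kpnb1, importin beta itself, which carries the adaptors through the pore, read 6.95, 6.44, 6.94 and 7.17 in WT and 7.92, 7.95, 8.05 and 7.97 in KO. Its mean went from 6.88 ± 0.31 to 7.97 ± 0.05 (SD, n = 4 per group), a change of 1.09 ± 0.16 (2.14-fold, adjusted p = 0.00287). Both other rows with Kpnb1 as the only symbol were also higher (1.075 and 0.54 log2 units), while a dimmer row annotated to Kpnb1 and Gm8738 differed by -0.36 (limma adjusted p = 0.0793 over all rows). Ipo5, which imports ribosomal proteins and histones among other cargo, read 6.33, 5.69, 6.33 and 6.06 in WT and 7.02, 6.93, 6.91 and 7.03 in KO (0.87 ± 0.16, adjusted p = 0.00638). Tnpo3, the importer of serine-arginine splicing factors, read 6.19, 5.18, 5.48 and 5.66 in WT and 6.76, 6.62, 6.43 and 6.59 in KO (0.97 ± 0.20, adjusted p = 0.0105). Neither gene overlapped between the groups, and both kept their call after the second quantile normalization, with differences of 0.498 and 0.58. A dimmer row annotated to Irf5 and Tnpo3 differed by 0.40 and did not pass (limma adjusted p = 0.238 over all rows).

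The other 5 that rose were Tnpo2 (0.995), Ipo8 (0.87), Tnpo1 (0.86, transportin, the receptor for hnRNP proteins), Ipo11 (0.74) and Ipo4 (0.62), with adjusted p of 0.0119 to 0.0306. Each lost its call among males and after the second quantile normalization, where the differences ran from 0.24 (Ipo4) to 0.60 (Tnpo2). The rows of Ipo4 disagreed: the brighter one, used here, rose, and the dimmer one had a difference of -0.60 ± 0.18 (limma adjusted p = 0.0434 over rows with 1 symbol), so that the mean of both was at 0.011 and not called. Ipo7, an importer of ribosomal proteins, read 7.51, 5.71, 7.01 and 7.15 in WT and 7.82, 7.65, 7.63 and 7.84 in KO. The groups did not overlap and WT 2 was far below the other WT arrays, and 0.89 ± 0.32 did not pass (adjusted p = 0.0755), while with the replicate block it did (adjusted p = 0.0408), as it did without WT 2 (0.51, adjusted p = 0.0458). Ipo9 read 4.77, 4.67, 5.46 and 4.52 in WT and 4.80, 5.58, 5.18 and 5.17 in KO, overlapping (0.33 ± 0.23, adjusted p = 0.296) and below 0 after both further normalizations. Ipo13, which works in both directions, differed by -0.15 (adjusted p = 0.542).

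Of the exportins 3 of 6 rose. Each had a mean level of 4 to 8, where 36.8% of all genes were higher. Xpo5, the exporter of microRNA precursors, read 4.14, 3.48, 3.37 and 3.52 in WT and 4.93, 5.05, 4.95 and 5.07 in KO, with the KO arrays close together (SD 0.07) above WT (1.37 ± 0.17, 2.59-fold, adjusted p = 0.00204). Xpo1 (CRM1), the general exporter of proteins with a leucine-rich signal, read 4.43, 4.67, 4.61 and 4.64 in WT and 5.11, 6.27, 5.47 and 6.06 in KO (1.14 ± 0.23, adjusted p = 0.0105). Here the KO arrays spread more (SD 0.53) than the WT arrays (SD 0.11). The difference was 0.73 after the second quantile normalization (adjusted p = 0.0805) and 0.745 after cyclic loess (adjusted p = 0.0864), and the call was also lost with males only (adjusted p = 0.0764). Xpo4 read 4.71, 4.33, 4.26 and 4.65 in WT and 4.86, 5.10, 5.07 and 5.07 in KO (0.53 ± 0.14, adjusted p = 0.025), with KO 1 nearest to WT; its call held in 11 of 19 alternatives, and the second quantile normalization brought the difference to 0.13.

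Xpot, the exporter of tRNA, read 6.73, 5.50, 5.95 and 6.16 in WT and 6.96, 6.76, 6.74 and 6.49 in KO (0.65 ± 0.23, adjusted p = 0.0715). KO 4 lay below WT 1, and the call was made with the replicate block (adjusted p = 0.0434). Xpo7 read 5.94, 5.13, 5.89 and 5.57 in WT and 5.90, 5.88, 5.96 and 5.98 in KO (0.30 ± 0.18, adjusted p = 0.222), level with the upper WT arrays. Xpo6, the exporter of actin, differed by 0.21 (adjusted p = 0.448). Both turned below 0 after both further normalizations.

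Averaged over the members, the KO arrays lay close together and the WT arrays did not. The mean deviation of the 48 genes from their own means over the 8 arrays was -0.06, -0.66, -0.27 and -0.29 in WT and 0.29, 0.35, 0.30 and 0.34 in KO, an SD of 0.25 in WT and 0.03 in KO. WT 2 was the lowest of the 4 WT arrays in 31 of the 48 genes (64.6%). It was also the lowest WT array in 67.9% of all genes of level 5 to 8, and in 30.5% of all genes. Without WT 2, 28 members were higher (58.3%, against 11.6% of all genes), 27 of them among the 30, and the median change was 0.56.

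Genes that work with these carriers and pores were counted for comparison. Of 38 measured partners 14 rose (36.8%, against 14.6% of all genes) and 1 fell, and the median change was 0.32. These shares are not matched for level. When only genes with a mean level of at least 4 were fitted, 14 of 22 partners were higher. That fit called 26 of 36 members (72.2%) and 40.6% of all genes higher. In the Ran cycle 3 of 10 rose: Ranbp1, a cofactor of Ran GTP hydrolysis, at 4.68, 4.70, 4.76 and 4.75 in WT and 5.27, 5.06, 5.41 and 5.47 in KO (0.58 ± 0.12, adjusted p = 0.0114), Cse1l (CAS), the exporter that recycles importin alpha, at 6.34, 5.31, 6.13 and 5.74 in WT and 6.62, 6.93, 6.38 and 6.90 in KO (0.83 ± 0.23, adjusted p = 0.0305), and Rcc2 (0.69). Ranbp1 kept to separate ranges by a wide margin, whereas the lowest KO array of Cse1l lay just above WT 1. Both calls were lost with males only, after the second quantile normalization (0.15 for Ranbp1 and 0.44 for Cse1l) and after cyclic loess (0.19 and 0.42). Ran itself (0.30, adjusted p = 0.249), its exchange factor Rcc1 (-0.37, adjusted p = 0.158) and its GTPase activator Rangap1 (0.08, adjusted p = 0.726) did not pass. The row of Ran was dim (mean level 2.825), so it says little about Ran. Of 5 other pore proteins 1 rose, the mRNA export factor Gle1, at 6.38, 5.86, 6.09 and 5.88 in WT and 6.82, 6.50, 6.66 and 6.34 in KO (0.53 ± 0.16, adjusted p = 0.0391), with KO 4 just below WT 1 and the call lost in 11 of 19 alternatives.

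In the mRNA export list 10 of 23 rose and 1 fell. Thoc1, a subunit of the THO complex that couples transcription to export, read 5.37, 3.81, 3.59 and 4.43 in WT and 6.59, 6.30, 6.28 and 6.38 in KO, without overlap (2.09 ± 0.33, 4.26-fold, adjusted p = 0.00416). Chtop, which joins THO, read 4.81, 4.42, 4.35 and 4.40 in WT and 5.36, 5.14, 5.40 and 5.55 in KO (0.87 ± 0.14, adjusted p = 0.00495), and differed by 0.45 after the second quantile normalization, where it was not called (adjusted p = 0.0602). Alyref, an adaptor of the export receptor, was a dim row at 2.02, 2.33, 2.20 and 2.14 in WT and 1.51, 1.84, 1.91 and 1.59 in KO (-0.46 ± 0.13, adjusted p = 0.0355), separate but lost in 10 of 18 alternatives. The export receptor Nxf1 rose by 0.70 ± 0.18 (adjusted p = 0.0226). After the second quantile normalization 1 of the 38 partner genes was called higher, beside 13 of the 48 pore and carrier genes and 5.54% of all genes. Without KO 4, 4 of the 38 partners were higher, against 8.03% of all genes. Without WT 2, WT 3, KO 1, KO 2 or KO 3 it was 8 or 9 of the 38, against 9.75% to 12.2% of all genes.

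Markers of other cell types were counted too, where 14.6% of all genes were higher and 6.99% lower. Of 12 macrophage markers 6 rose at the adjusted threshold. All 12 had a difference above 0 (1.05 to 2.29, median 1.62) and an unadjusted limma p under 0.05. Their mean level was 3.56 to 5.17 in the WT arrays and 5.01 to 6.42 in KO. WT 2, the array in which the members read lowest, had the highest macrophage level of the WT arrays and KO 1 the lowest of KO. Of 9 proliferation markers 1 rose (11.1%, below the share of all genes), with a mean level of 2.81 to 3.46 in WT and 3.21 to 3.84 in KO. Of 4 ductal markers 1 rose. At an unadjusted limma p under 0.05, 4859 of all 22180 genes were higher and 3817 lower. At that threshold 2 proliferation markers were higher, and 2 ductal markers were higher and 1 lower. Of the neutrophil (6 genes), T and B cell (7), endothelial (6), stellate (7) and islet (5) markers 0 passed with limma, and at an unadjusted p under 0.05 there were 0, 1 lower, 1 lower, 4 higher and 0. The stellate list had a mean level of 4.89 to 6.23 in WT and 5.33 to 7.45 in KO. The mean level of the acinar list separated the groups, although 6 of its 10 genes did not pass and its median change was -0.18. Those of the macrophage, proliferation and stellate lists overlapped. The part of these cells in the changes of pore and carrier genes was not tested.

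**Figure D4:**
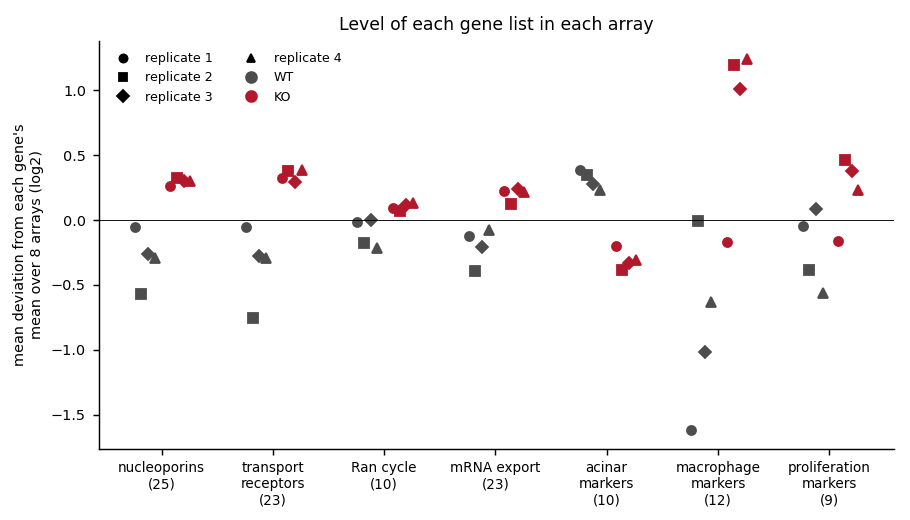
Level of 7 gene lists in each array (y axis, mean over the list of the log2 value minus each gene's mean over the 8 arrays; x axis, the lists with their number of genes), WT in grey and KO in red, with a symbol for each replicate number. Nucleoporins and transport receptors show 4 KO arrays close together and WT 2 lowest, while macrophage markers spread over more than 1 log2 unit within each genotype and overlap at WT 2 and KO 1.

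Each genotype held 1 female, so a genotype by sex term has no spread among females behind it and does not show whether the sexes differ. With limma 0 of the 48 passed (smallest adjusted p = 1), beside 1 of all genes, and 2 had an unadjusted p under 0.05, Nup205 and Nup188, where 1.74% of all genes did. For Nup205 the 1 WT female is WT 4, the array that stood apart.

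**Figure D5:**
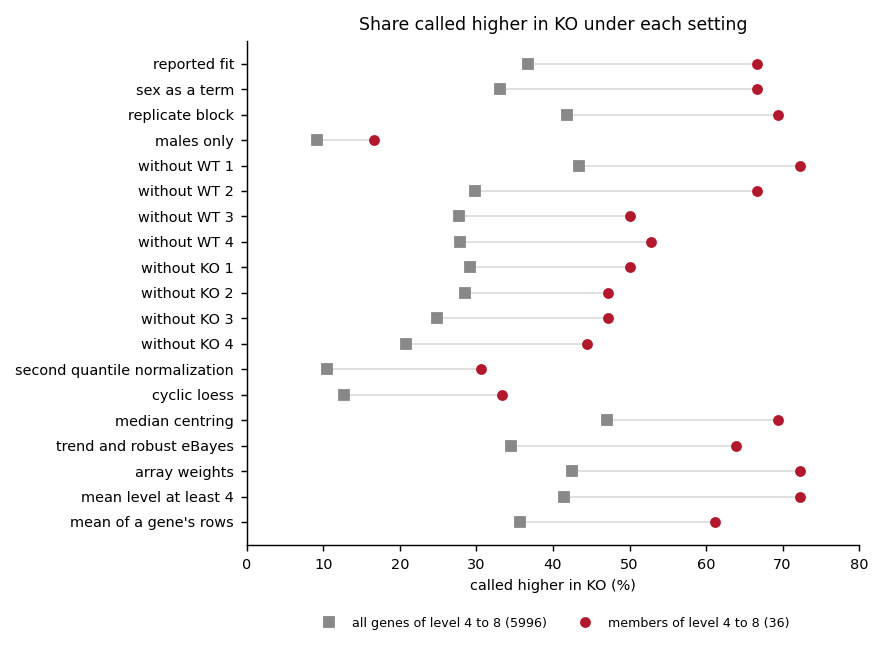
Share of genes called higher in KO (x axis, percent) under the reported fit and 18 alternatives (y axis), for the 36 members with a mean level of 4 to 8 (red circles) and for all 5996 genes of that level (grey squares). The members lie to the right in each setting shown, at 66.7% against 36.8% in the reported fit, 30.6% against 10.5% after the second quantile normalization and 16.7% against 9.19% among males only.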

How the data were processed

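Total RNA from 8 mouse pancreas samples (100 ng each, per the labels' protocols) was measured on Affymetrix whole-transcript arrays. The authors deposited log2 expression values, 1 table row per probe set, in 41345 rows. The submitters' processing notes name RMA, oligo and limma without their roles. They do not state the log base, so the log2 scale was inferred from the range of the values. Background signals, scan dates and probe positions were not used here. The number of arrays limits the precision.

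Platform annotation gave 1 gene symbol for 23521 rows, several for 1814 and none for 16010. The row of highest mean over the 8 arrays was kept for each of 22180 genes, with no filter on low values. KO was compared with WT by limma 3.58.1 (R 4.3.3; lmFit and eBayes) across all genes, and p-values were adjusted over them by Benjamini-Hochberg, with a threshold of 0.05; every adjusted p is from that fit unless stated. Errors of differences are standard errors of the fit. The script was tested on simulated data of 4 against 4 arrays. It called 77% of changes of 1 log2 unit and 98% of changes of 2, and 7.89% of its calls were false. This checks the script and not the calls in these arrays. The set of genes to describe and the gene lists were chosen with earlier results of these data known; within the set, membership follows from the symbol. Values in every array are given for up to 3 members per role called higher and up to 2 not called (by smallest p), for every member called lower, and for up to 2 called genes per direction in each partner list; other members are given by count, range or difference. Rows with several symbols were added after their values were seen.

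Deviations of same-numbered WT and KO arrays from their group means correlated at 0.263, 0.165, 0.11 and 0.138 for numbers 1 to 4, each over 0.1. Among differently numbered pairs WT 4 with KO 2 (0.125) and WT 3 with KO 1 (0.106) were also over 0.1, and no label states what a number shares, so the pairing is weakly grounded. The reported fit has no block; the fit with the replicate number as a block is an alternative. The other alternatives were a sex term, males only, leaving out each array, 3 further normalizations, other variance models and weights, a level filter and other handling of rows. Promoters are from RefSeq, build GRCm38.p6, and the letters searched for NRF1 were chosen after a longer form had been counted.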

Additional observations from a re-analysis of the deposited data

Results flagged for a closer look

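In 3 of the 96 groups of 4 arrays (48 genes, WT and KO; 3.12%), 1 array stood apart by Dixon's criterion, where chance gives about 5%. For Nup205, WT 4 read 3.13 and the other WT arrays 3.87 to 3.90. For Nup210, WT 2 read 4.33 and the others 5.03 to 5.10. For Xpo4, KO 1 read 4.86 and the others 5.07 to 5.10.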

How the results depend on the processing

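All 30 genes called higher stayed above 0 in every alternative tried, at the least 0.0035 for Nup214 (second quantile normalization) and 0.011 for Ipo4 (mean of its rows), and 6 kept their call in all of them. Members called higher numbered 30, and 6 with males only, 13 after the second quantile normalization and 15 after cyclic loess (19 to 32 with each array left out). The shares of all genes called higher were 14.6%, and 3.47%, 5.54% and 6.86% in that order (8.03% to 16.7% with each array left out). Nucleoporins numbered 16, and 4, 8 and 9 (10 to 15). Transport receptors numbered 14, and 2, 5 and 6 (9 to 17). Partners numbered 14, and 2, 1 and 3 (4 to 17). The median change of 0.72 became 0.48 after the second quantile normalization and 0.47 after cyclic loess (0.56 to 0.87 with each array left out). The count called lower, 1 (Nup188), became 0 with a sex term, with males only, after the second quantile normalization, after median centring and at a mean level of at least 4, where Nup188 was not tested (0 to 1 with each array left out). After cyclic loess and without WT 2 the 1 gene called lower was Nup62cl. Fewer arrays entered the fits with males only and with an array left out; the cause of the other shifts was not tested.

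With the replicate block, 31 members were higher (64.6%, against 16.7% of all genes) and 0 lower. Ipo7 and Xpot gained a call, Nup214 and Nup188 lost theirs, and the other members kept theirs. This fit gave 15 nucleoporins, 16 transport receptors and 15 partners as higher.

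Differences that did not pass turned sign as follows. After the second quantile normalization and after cyclic loess they were -0.23 and -0.22 for Nup210, -0.28 and -0.25 for Nup50, -0.28 and -0.27 for Kpna1, -0.089 and -0.061 for Ipo9, -0.12 and -0.11 for Xpo7, -0.21 and -0.19 for Xpo6, and 0.078 and 0.0975 for Kpna7. With each array left out, Nup210 ran from -0.018 (without WT 2) to 0.238 and Kpna1 from -0.041 (without WT 2) to 0.243. After median centring Pom121 was at 0.00075, and Kpna7 was also above 0. Signal over background is not given, so how far dim genes such as Nup188, Nup210l and Kpna7 were measured is unknown. The same holds for Nup133, Nup107 and Nup43 in WT.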
